A study of Homo sapiens with 30 samples.

Results

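The report describes 388 regions of RNA polymerase II (Pol II) that lay inside genes or just past their 3′ ends, away from annotated start sites and away from active histone marks, in the human triple-negative breast cancer cell line MDA-MB-231. They were selected on the measured peaks. A region was built from Pol II peak summits of both parental replicates, each extended by 500 bp at each side and merged where they met, which gave 15097 regions. It was kept where its summits came no nearer than 1000 bp to a start site of a coding or long noncoding RNA (lncRNA) gene, where it overlapped no parental region of H3K4me3 or H3K9Ac, and where its midpoint lay in a gene or at most 5000 bp past the gene's 3′ end. The series profiled chromatin by ChIP-seq in parental MDA-MB-231 cells and in the line SAP30-KO1, in which SAP30, a core subunit of the SIN3 histone deacetylase complex, was knocked out by CRISPR/Cas9. Peak lists were analysed for Pol II, H3K4me3 and H3K9Ac in both lines and for SAP30, SIN3A and SIN3B in parental cells, with 2 replicates each, 18 lists in all. The study's methods give no difference in culture medium between the lines. By these methods knockout cells were treated with puromycin, and SAP30-KO1 is a mixture of several expanded knockout clones. No such treatment is given for parental cells, so effects of the selection and of the clones cannot be told apart from the knockout. The SAP30 lists used here come from parental cells, so loss of SAP30 itself was not measured in these data.

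Pol II is recruited at promoters, pauses shortly after the start, and is then released to copy the gene body. When it has passed the poly(A) signal, the transcript is cut and Pol II goes on for some distance before it leaves the DNA, and it can slow there, so that active genes can carry a Pol II peak past their annotated end. Small RNA genes such as those of U1 and U5 are transcribed by Pol II from short promoters of their own that can sit inside introns of other genes, and enhancers in introns also bind Pol II, usually beside acetylated histones.

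The Pol II lists held 20735 to 23340 summits, and the read depth behind them is unknown, so that a missing summit is not evidence of missing Pol II. Summits were compared by percent rank in their own list, ordered by the deposited score (0 is the best-scored summit and 100 the last). The 388 regions, here called gene-body regions, ranked low. Their median rank was 71.9, against 28.4 for the 11668 promoter regions and 64.0 for the 2029 other regions in genes away from starts that did overlap H3K4me3 or H3K9Ac, here called marked regions. Only 59 of the 388 (15.2%) had a mean rank of 50 or better. The number itself depended on how far summits were extended: 1458 regions met the rule with 100 bp, 872 with 250 bp and 164 with 1000 bp. The marks were extended by the same length. With 100 bp for Pol II and 500 bp kept for the marks, 597 regions met it. The regions nearest to the limit were at CKAP4, the lncRNA ENSG00000282885 and ZNF213-AS1, 1051, 1051 and 1061 bp from a start site, and those just left out were at DHDDS, VIM and C2CD2L, 935, 947 and 982 bp away. The median distance to a start site was 3164.5 bp. At least 1 parental library held a mark at 115 of the 388, without a consensus region of both libraries.

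The sequence at 2 regions is shown, the best-ranked region of all and the best-ranked one that was missing from SAP30-KO1 cells. Each is the plus strand of GRCh37, 101 bases around the midpoint of the region, read 5′ to 3′, with CG dinucleotides in capitals.
ARMH1 intron, chr1:45187327-45187427: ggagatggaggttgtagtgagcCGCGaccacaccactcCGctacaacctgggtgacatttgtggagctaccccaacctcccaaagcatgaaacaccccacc
PTPRS intron, chr19:5309136-5309236: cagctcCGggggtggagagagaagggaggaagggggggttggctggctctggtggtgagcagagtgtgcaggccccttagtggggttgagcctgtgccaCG

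Gene-body regions held fewer CG than marked and promoter regions. In windows of this length their median was 1 CG, against 3 at marked regions and 10 at promoter regions. A CG was present in 75% of the gene-body windows, 85.8% of the marked and 98.5% of the promoter windows. The median G+C content of gene-body regions over 201 bases was 53.5%, against 56.7% at marked regions and 68.2% at promoters. The rule removed regions at starts and regions with marks, so these differences cannot be told apart from that removal. The CG content of the other sequence in genes was not measured.

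The first question was where along genes these regions lay. They lay mainly toward and past the 3′ end. Of the 388, 99 (25.5%) lay past the end of their gene and 62 (15.98%) in its last 10%, together 161 or 41.5% (exact binomial 95% interval 36.5% to 46.6%). Of the marked regions 21.7% lay there, which gave an odds ratio of 2.55 (95% interval 2.02 to 3.23). Of the gene sequence that the rule could have chosen, 14.4% lay there, so the share was 2.87 times that of the sequence. That sequence came from all coding and lncRNA genes, with or without Pol II. The median assigned gene was 17819.5 bp long for gene-body regions, 4805 bp for those past the end and 68408 bp for marked regions. In a short gene the end and its flank make up more of the eligible sequence. Neither these comparisons nor those of the 3′ end window below were matched for gene length. The first 10% of genes held 47 regions (12.1%), and the parts between held fewer than their share of sequence. All intervals given here measure counting error alone, because the regions are no replicates of each other. The share followed the extension of the summits. It was 53.7% with 1000 bp, 29.7% with 250 bp and 22.3% with 100 bp, where marked regions were at 24.8%, so that the excess over marked regions was not seen at 100 bp. With 100 bp for Pol II and 500 bp for marks, the shares were 29.0% and 21.5%.

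**Figure D1:**
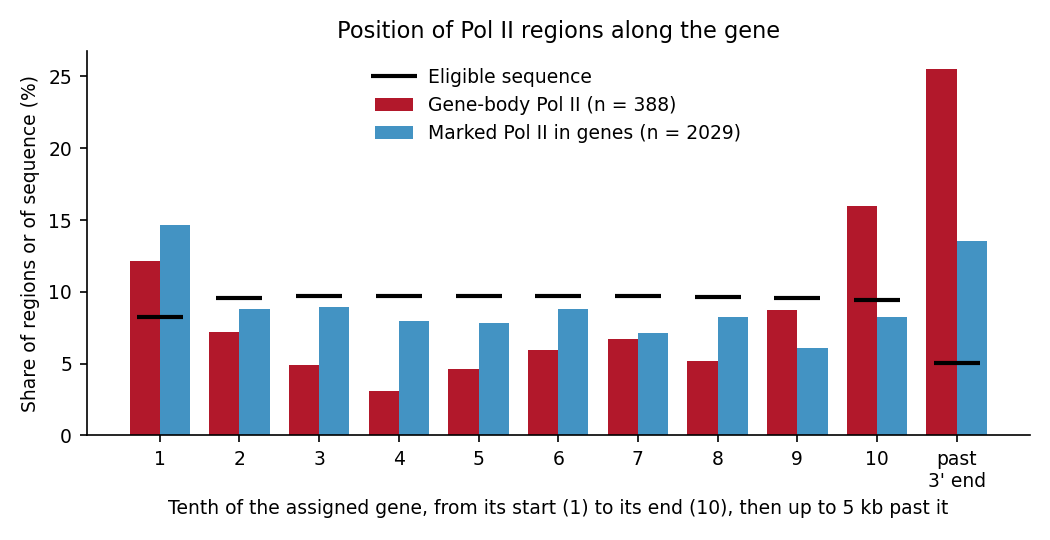
Share of gene-body Pol II regions (red), of marked Pol II regions in genes (blue) and of the eligible gene sequence (black lines) in each 10% of the assigned gene and in the 5 kb past its end. The gene-body regions reach 15.98% in the last 10% and 25.5% past the end, where the sequence share is 5.03%.

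A gene that overlaps another hides the nearer gene end in this count, so the distance to any coding or lncRNA gene end was also measured, in a window from 1000 bp before to 5000 bp past it, chosen after the first counts were seen. In this window lay 230 gene-body regions (59.3%, 54.2% to 64.2%) and 547 marked regions (27.0%), an odds ratio of 3.94 (3.13 to 4.97). The window took up 10.7% of the eligible sequence. Of the 230, 179 lay past the end and 51 before it, with a median distance of 832 bp past the end and quartiles of 150 and 1624 bp. The bin from 500 to 1000 bp past the end held 52 regions, the most of any, while marked regions were spread over the window with a median of 1794 bp. The share was 33.5% with an extension of 100 bp (marked 29.7%), 44.6% with 250 bp (marked 27.3%) and 69.5% with 1000 bp (marked 25.7%).

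**Figure D2:**
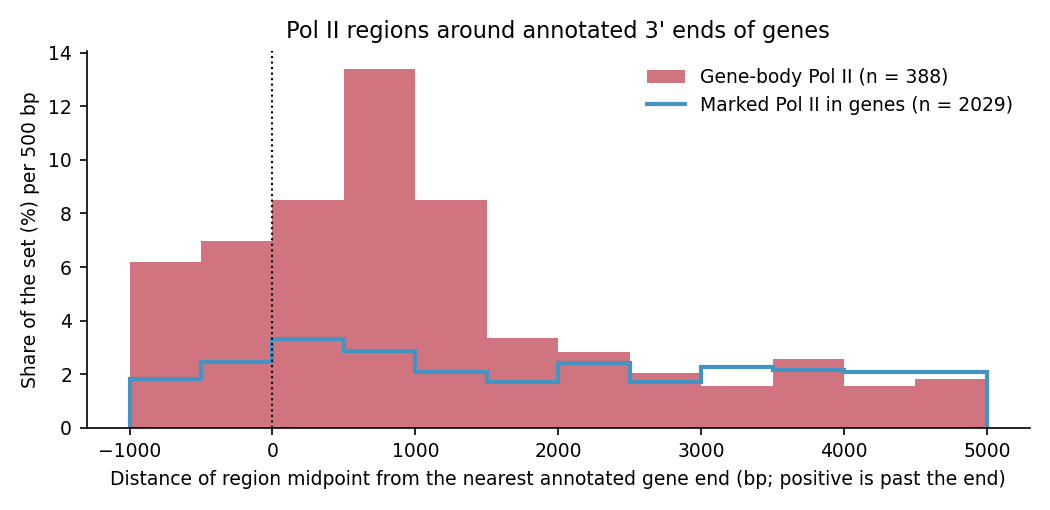
Distance from the region midpoint to the nearest annotated gene end, in bins of 500 bp, for gene-body regions (red, filled) and marked Pol II regions (blue line), each as a share of its set. The red share is highest, 13.4%, from 500 to 1000 bp past the end, and the blue line stays between 1.72% and 3.30%.

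The genes at these ends were well occupied by Pol II at their starts. The 230 regions lay at the ends of 222 genes, 169 of them coding, and 161 of the 169 (95.3%) had a parental Pol II region at a promoter, against 57.9% of all coding genes and 71.1% of the coding genes nearest to marked regions in the same window. The median promoter rank was 10.5 for the genes with promoter Pol II among the 222 and 25.5 for all coding genes with one. Ends of genes on both strands lay in reach of 55 of the 230 regions (23.9%), against 11.3% of the marked regions in the window. The poly(A) signal AATAAA, searched in the last 50 bases of the gene on the strand of the gene, was in 99 of the 169 coding genes (58.6%), close to the 58.5% of all coding genes. The annotated gene end is the outermost end of any transcript. When ends of every basic transcript were used, 254 of the 388 regions (65.5%) lay in the window, against 30.9% of the marked regions.

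The last 30 bases of TUBB4B, RPL13, HSPA8, ACTB, HSP90AA1 and RPL29, whose 3′ flanks also carried a region, held no AATAAA. Only genes with AATAAA in these bases are shown. The last 30 bases of 3 such genes are given in the direction of the gene, with AATAAA in capitals (GRCh37). Their last base is the place from which distances past the end were counted.
VIM, plus strand, chr10:17279563-17279592: ttctgcttcAATAAAtctttggaaaaactc
GADD45B, plus strand, chr19:2478228-2478257: gggccttgtAATAAAtttctaaagcctctg
PFN1, minus strand, chr17:4848947-4848976: ttttctgAATAAAaaagattctactaacaa
The signal began 21, 21 and 23 bases before the annotated end of VIM, GADD45B and PFN1. The Pol II region lay 715, 304 and 243 bp past it. The PFN1 region was also 187 bp past the end of RNF167, a gene on the plus strand.

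By annotation at the midpoint, 198 of the 388 regions (51.0%) were intronic, 62 lay in a UTR exon, 16 in a coding exon and 13 in a noncoding exon. UTR exons took 15.98% of gene-body regions and 3.89% of marked regions. Coding genes held 325 regions and lncRNA genes 63, and 159 regions lay in or just past more than 1 gene. Outside the 3′ end window were 158 regions. Of these, 24 lay within 1000 bp of a start that the rule had not counted, such as that of a small RNA, a pseudogene or a minor transcript, and the other 134 were deeper inside genes, 115 of them in introns. Over all 388, 73 lay near such a start, 54 of them at minor transcripts of coding genes and 13 at small RNA genes.

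The best-ranked regions were a mixture of both kinds. The top one lay in an intron of ARMH1, near the end of that gene (summits at chr1:45187358-45187397), 197 bp from the start and 81 bp past the end of RNU5F-1, a U5 small nuclear RNA gene on the minus strand. It ranked at 0.0772 and 0.0652 in the parental replicates and at 0.0514 and 0.0271 in the SAP30-KO1 replicates, among the strongest Pol II peaks of every list. SAP30 was found there in replicate 1 alone. The second lay 834 bp past the end of VMP1, which encodes a membrane protein of autophagy, and 1752 bp past MIR21. In the annotation used, the microRNA gene MIR21 lies inside VMP1, near its end. The ranks of this region were 1.48 and 0.539 in parental and 1.11 and 0.547 in SAP30-KO1 cells, so the lines overlapped. Extended summits of both SAP30 libraries overlapped this region.

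A region past ACY1, an aminoacylase gene, also lay 2856 bp past the end of RPL29, a ribosomal protein gene on the other strand. It ranked at 4.14 and 5.54 in parental and at 22.03 and 22.7 in SAP30-KO1 cells, with no overlap between the lines, and had no SAP30, SIN3A or SIN3B summit in any library. A region in an intron of TEX14 lay within RNU1-85P, a U1 small nuclear RNA pseudogene, 129 bp from its start. It ranked at 7.23 and 12.3 in parental and at 45.9 and 64.2 in SAP30-KO1 cells, which did not overlap. The U1 and U5 genes belong to families with near-identical copies, and how reads that match several copies were treated is not given in the sources used here, so the signal at these 2 regions is uncertain. VIM, which encodes the intermediate filament protein vimentin and is highly transcribed in mesenchymal-like cells, had its region 715 bp past its end. The parental ranks there, 8.01 and 18.2, enclosed the SAP30-KO1 ranks of 16.5 and 17.4, and no SIN3 complex protein was listed. RCC1 with the overlapping snoRNA host gene SNHG3, FAM166A with the end of the tubulin gene TUBB4B, C11orf68, TGFB2 and PTPRS made up the rest of the 10, with mean parental ranks of 18.6 to 26.9.

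**Figure D3:**
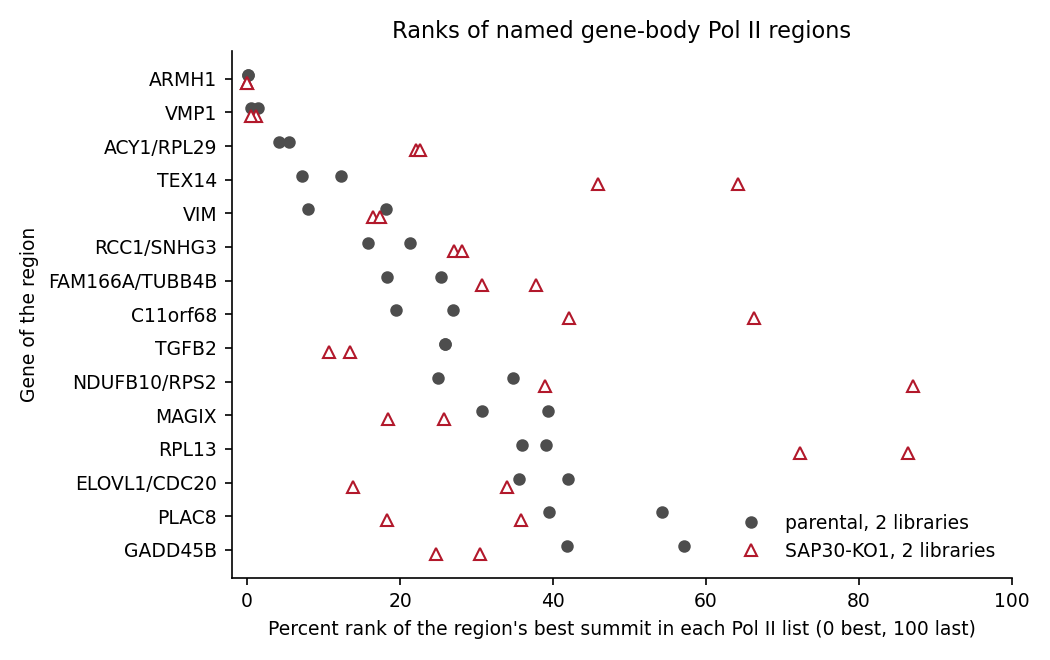
Percent rank of the best summit of each named gene-body region in the 2 parental (grey circles) and 2 SAP30-KO1 (red triangles) Pol II lists, 0 being the best. ARMH1 and VMP1 stay below 1.5 in all lists, TEX14 and RPL13 lie further right in both SAP30-KO1 lists, and TGFB2 and GADD45B further left.

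Most genes held a single region: 351 of 368 assigned genes had 1 and 17 had 2 or more. NEAT1, the lncRNA that builds nuclear paraspeckles, had 4 along its body, with mean parental ranks of 74.9 to 91.5. No SAP30 was listed at any of them, and 3 of the 4 had no SAP30-KO1 summit. HSP90AA1, a cytosolic HSP90 chaperone gene, had 3 past its end, at 357, 1757 and 3118 bp. The middle one ranked at 58.3 and 47.3 in parental cells, was listed in SAP30-KO1 replicate 1 at 68.8 and was absent from replicate 2, and the outer ones were absent from both. HSPA8, the constitutive HSP70 chaperone gene, had regions 1102 and 2838 bp past its end. The nearer ranked at 47.4 and 46.8 in parental and 67.8 and 57.1 in SAP30-KO1 cells, and the farther was absent from the latter. ACTB, the beta-actin gene, had a region 158 bp past its outermost end, and 897 bp past the end of a shorter transcript, with ranks of 47.6 and 38.5 in parental and 35.1 and 36.3 in SAP30-KO1 cells and no SAP30. Its better-ranked region lay in an intron of its longest transcript alone, upstream of where its other basic transcripts start. It overlapped a SAP30 consensus region, but of the single SAP30 libraries only replicate 2 was found there. The ranks there were 25.4 and 29.7 in parental and 20.2 and 45.7 in SAP30-KO1 cells, so the lines overlapped. The other genes with 2 regions named by the rule were VIM, RCC1, CCDC9B, BRI3, TPT1 and RPL28.

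Ribosomal protein genes, which are short and among the most transcribed of growing cells, were the gene list with the largest share of holders. Of 79 genes for cytosolic ribosomal proteins, 34 (43.0%) held a gene-body region, against 1.44% of all 38690 coding and lncRNA genes and 3.09% of those with promoter Pol II. Of other coding genes of up to 10 kb whose promoter ranked in the best 10%, 17.4% (76 of 438) held one, and of the 41 ribosomal protein genes of that length and rank 23 did (56.1%). Ribosomal protein genes that held a region were shorter (median 4173 bp against 6383 bp) and had a better median promoter rank (4.25 against 7.54) than those that held none. In 27 of the 34 a region lay in the window at the gene's own end. Over all 38 regions of these genes, in or outside that window, the median position was 834 bp past the gene's own end. Their 38 regions ranked in the lower part of the lists (median 65.4). Of them 4 (10.5%) had SAP30, against 31.7% of all gene-body regions and 91.5% of all Pol II regions. Among the 230 gene-body regions in the 3′ end window, where most of the ribosomal protein genes had theirs, the share was 20.4%. In the SAP30-KO1 lists 18 were in both and 11 (28.9%) in neither, against 35.1% of all gene-body regions and 8.91% of all Pol II regions in neither. RPL13 had its region 420 bp past its end, with ranks of 35.9 and 39.0 in parental and 72.3 and 86.5 in SAP30-KO1 cells, which did not overlap. RPL10A had one 1998 bp past its end, with parental ranks of 54.3 and 30.7 and SAP30-KO1 ranks of 61.4 and 83.3. That region lay nearer to the end of TEAD3 on the other strand, 814 bp past it. The region of RPS2, which also lies in a coding exon of NDUFB10 and beside the snoRNA gene SNORA10, ranked at 34.8 and 24.99 in parental and 39.0 and 87.1 in SAP30-KO1 cells.

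Of 40 cytoskeleton genes 11 (27.5%) held a region, 8 of them at the gene's own end. Over all coding and lncRNA genes the share was 1.44%, and over coding genes with a promoter rank in the best 10% it was 7.63%. For such genes of up to 10 kb, without ribosomal protein genes, it was 17.4%. The lists from here on were not matched for length or promoter rank, so an excess in a list beyond these shares was not tested. TUBB4B, a beta-tubulin gene, had it 477 bp past the end with ranks of 25.4 and 18.3 in parental and 30.7 and 37.7 in SAP30-KO1 cells. PFN1, which encodes the actin-binding protein profilin, had ranks of 37.4 and 27.7 in parental and 35.1 and 69.0 in SAP30-KO1 cells, so that the lines overlapped, and SAP30 was listed there. The PFN1 region lay nearer to the end of RNF167 on the other strand, 187 bp past it. Of 16 heat shock genes 6 (37.5%) held a region, 5 of them at their ends. Of 27 matrix genes and YAP targets 5 (18.5%) did: ANKRD1, PLAU, MMP14, LAMA5 and THBS1. ANKRD1, a YAP target that encodes a nuclear ankyrin repeat protein, had ranks of 39.3 and 46.6 in parental and 44.3 and 67.8 in SAP30-KO1 cells. PLAU, the urokinase gene, had its region 169 bp past the end, with ranks of 64.6 and 49.8 in parental and 60.2 and 40.4 in SAP30-KO1 cells. Neither region overlapped a SAP30 consensus region.

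Of 25 AP-1 and immediate early genes JUN, FOSL1 and IER5 (12%) held a region, each overlapping a SAP30 consensus region. The JUN region counted as inside the gene by its outermost end but lay 1144 bp past the end of its shorter transcript, and ranked at 40.7 and 35.4 in parental and 61.4 and 51.0 in SAP30-KO1 cells without overlap. Of 13 nuclear lncRNA genes NEAT1 and SNHG1 (15.4%) held regions, and of 19 glycolysis genes PKM (5.26%) did, with SAP30. None of the 10 genes that the study followed held one, which allows a share of up to 30%, and none of 32 replication-dependent histone genes did, which allows up to 9.38%. Both limits include the 1.44% of all genes.

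The next comparison asked whether SAP30 lay at these regions, which the rule did not use. A SAP30 consensus region, one with summits of both SAP30 libraries, overlapped 123 of 388 gene-body regions (31.7%, 27.1% to 36.6%). Replicate 1 alone was found at 34.8% and replicate 2 alone at 36.3%. Over all Pol II regions the share was 91.5%. Marked regions had 82.0% and promoters 96.2%, so that gene-body regions had SAP30 less often than marked regions, with an odds ratio of 0.102 (0.0795 to 0.131) and 0.109 within 10 strata of Pol II rank. The 69 regions away from starts with no mark and outside genes and their 3′ flanks had 26.1% (16.3% to 38.1%). A low share was thus not particular to gene-body regions. Regions at gene ends and deeper ones differed. SAP30 lay at 47 of the 230 regions in the 3′ end window (20.4%) and at 76 of the other 158 (48.1%), an odds ratio of 0.278 (0.173 to 0.444). Among marked regions the same split gave 83.5% and 81.4%, an odds ratio of 1.16 (0.890 to 1.53). The rule removed regions with H3K4me3 or H3K9Ac, and SAP30 lay at most regions that carry them, so a low SAP30 share cannot be told apart from that removal. Where a mark summit of any single parental library removed a region, 19.4% of the 273 that stayed had SAP30. The odds ratio against marked regions was 0.443 with an extension of 100 bp and 0.0446 with 1000 bp.

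SIN3A, a scaffold protein of the complex, had a consensus region at 5.15% of gene-body regions, against 8.58% of marked regions (odds ratio 0.580, 0.341 to 0.938). SIN3B, the other scaffold protein, was found at 28.9% against 42.9% (0.541, 0.423 to 0.688). At promoters the shares were 48.1% and 84.3%, and at the 69 unmarked regions outside genes 0% and 17.4%. SIN3B followed the split seen for SAP30, with 21.3% in the 3′ end window and 39.9% outside it (0.409, 0.254 to 0.655), whereas for SIN3A the interval of 0.245 to 1.85 around 0.673 included 1.

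**Figure D4:**
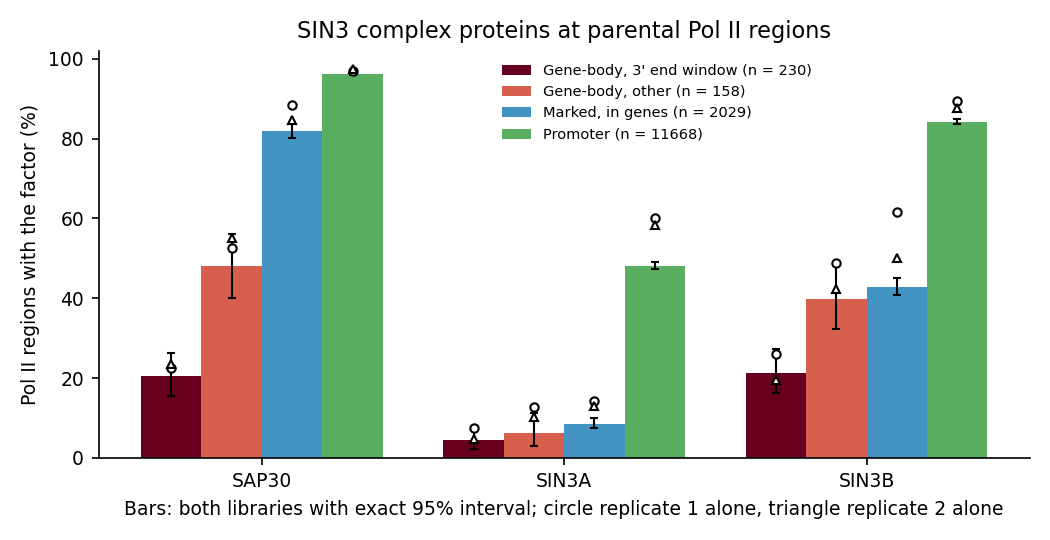
Share of parental Pol II regions that overlap a consensus region of SAP30, SIN3A or SIN3B (bars, exact 95% interval) or are found in each library alone (circle, triangle). SAP30 is at 20.4% of gene-body regions in the 3′ end window, 48.1% of the others, 82.0% of marked regions and 96.2% of promoters.

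The last comparison was between SAP30-KO1 and parental cells. Because the 388 were chosen in parental cells, the rule was first applied to each library by itself, with the marks of its own line. It found 747 and 1026 regions in the parental and 964 and 888 in the SAP30-KO1 replicates, a ratio of 1.04 between the means (two-sided exact permutation test, p = 1.0, where 0.33 is the smallest p that 2 libraries against 2 can give). Without parental replicate 1 the ratio was 0.903 and without parental replicate 2 it was 1.24. The direction also turned at a common score, which left 71 and 120 parental and 16 and 11 SAP30-KO1 regions (ratio 0.141). Whether promoter or marked regions fell likewise at that score was not tested. Without removal by marks the ratio was 0.725, with marked regions counted too (3397 and 4648 parental, 3214 and 2620 SAP30-KO1). By the main settings the ratio per library was 0.635 for marked and 0.919 for promoter regions. As a share of all regions of the library, those that met the rule were 4.44% and 5.44% in parental and 5.99% and 6.04% in SAP30-KO1 cells (exact permutation p = 0.33). The 2 libraries of a line shared them to a different degree. Of the parental ones 61.04% and 44.2% had a summit in the other parental library, and of the SAP30-KO1 ones 19.3% and 21.7% had one in the other SAP30-KO1 library (exact permutation p = 0.33). At marked regions this was 78.7% and 57.9% in parental and 50.9% and 65.3% in SAP30-KO1 libraries, and at promoters 91.2% to 95.7% in all 4. The share with SAP30, as mapped in parental cells, was 29.7% and 28.8% in parental and 16.6% and 16.2% in SAP30-KO1 libraries (exact permutation p = 0.33), and the share in the last 10% or past the end was 35.9% and 34.2% against 27.4% and 25.5% (exact permutation p = 0.33).

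A summit was present within 210 of the 388 gene-body regions in SAP30-KO1 replicate 1 (54.1%) and within 177 in replicate 2 (45.6%). All 4 lists held 135, a single SAP30-KO1 list held 117, and 136 (35.1%, 30.3% to 40.0%) were in neither, here called lost. The background over all 15097 parental regions was 8.91%. Marked regions were lost in 25.2% and promoters in 3.70%. The 69 unmarked regions outside genes were lost in 42.0% (30.2% to 54.5%), so frequent loss was not particular to gene-body regions. The odds ratio of loss against all other Pol II regions was 6.02 (4.81 to 7.52), but 1.35 within rank strata, and against marked regions it was 1.60 (1.26 to 2.03), or 1.22 within rank strata. Loss followed rank in every set: of gene-body regions with a mean rank of 50 or better 2 of 59 were lost (3.39%), and of those over 80 it was 67 of 114 (58.8%), against 1.95% and 51.1% of marked regions in the same bands. In the opposite direction, the rule found 160 consensus regions in SAP30-KO1 cells, of which 85 overlapped a parental one and 12 (7.50%) had no summit in either parental list, against 0.992% of all SAP30-KO1 consensus regions. Of the 388 parental regions, 85 carried a consensus region of H3K4me3 or H3K9Ac in SAP30-KO1 cells, a number that could only be above the parental one, which the rule had set to 0, and 115 already had a mark in at least 1 parental library.

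**Figure D5:**
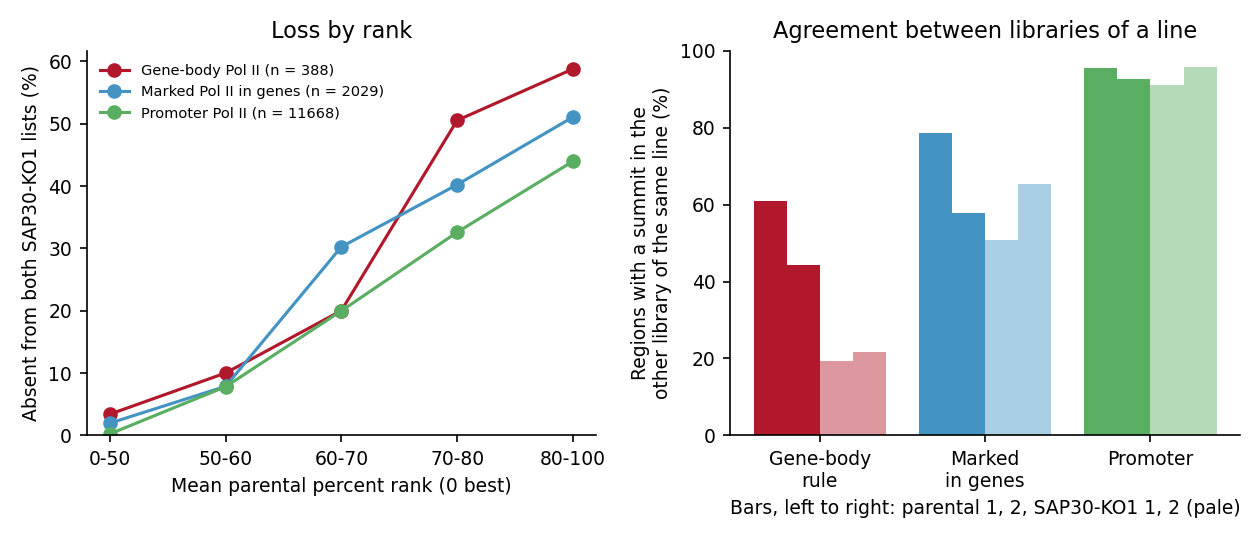
Left, share of parental Pol II regions absent from both SAP30-KO1 lists by band of mean parental rank (bands of unequal width), for gene-body (red), marked (blue) and promoter (green) regions. Right, share of the regions of each library that had a summit in the other library of its line. In SAP30-KO1 it was 19.3% and 21.7% for gene-body regions and 50.9% and 65.3% for marked regions, and it was over 90% for promoters.

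Regions with SAP30 were lost less often than those without, 31 of 123 (25.2%) against 105 of 265 (39.6%), with an odds ratio of 0.514 (0.308 to 0.844). Regions with SAP30 also ranked better, with a median of 67.6 against 73.0, and within rank strata the odds ratio was 0.622. With an extension of 1000 bp it was 1.40 (0.593 to 3.27). Of regions in the 3′ end window 35.7% were lost and of the others 34.2%, with an odds ratio of 1.07 (0.683 to 1.67) whose interval included 1.

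The 135 regions in all 4 lists were ranked again among the 11924 Pol II regions in all 4 lists. In both SAP30-KO1 lists 21 (15.6%) ranked worse than in both parental lists and 39 (28.9%) better, against backgrounds of 20.3% and 20.4% over all regions, most of which are promoters. Marked regions had nearly the same shares, 14.6% worse and 28.8% better. The median rank of the 135 fell by 3.01 points on the scale of 0 to 100, that is, toward the better end, and that of marked regions fell by 3.19. The 3′ end window held 16 of the 21 and 18 of the 39, out of 81 regions, and the 46 regions deeper inside genes had 3 worse and 20 better.

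The best-ranked lost region was in an intron of PTPRS, a receptor-type tyrosine phosphatase gene (chr19:5309157-5309215). It ranked at 33.3 and 20.5 in the parental lists, and the nearest SAP30-KO1 summits were 15944 and 15989 bp away. The next was in an intron of CUBN, which encodes the endocytic receptor cubilin, with parental ranks of 56.7 and 42.2 and the nearest SAP30-KO1 summits 59102 and 74672 bp away. One in the lncRNA gene CEACAM22P ranked at 58.8 and 54.2, with the nearest at 12556 and 12571 bp. None of these 3 had SAP30, SIN3A or SIN3B in any library. The lost regions of SH3BP2, an adaptor protein gene, and of the lncRNA ENSG00000288833 had a SAP30-KO1 summit of another region within 1602 and 1137 bp, so that the loss there is of 1 summit beside another.

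The largest changes toward a worse rank, beside those of TEX14, ACY1, RPS2 and RPL13 given above, included the region 785 bp past C11orf68, an uncharacterised gene. It ranked at 26.9 and 19.5 in parental and at 66.3 and 42.0 in SAP30-KO1 cells, and SAP30 was in both libraries. Of these 5 regions those of ACY1, C11orf68 and RPL13 lay at least 420 bp past the end of the named gene. That of RPS2 lay 423 bp past the end of RPS2 but inside NDUFB10. The largest changes toward a better rank were led by GADD45B, a stress-induced growth arrest gene. Its region 304 bp past the end ranked at 57.1 and 41.9 in parental and at 24.7 and 30.5 in SAP30-KO1 cells. PLAC8 followed, with an intronic region at 54.2 and 39.5 in parental and 35.8 and 18.3 in SAP30-KO1 cells. In an intron of TGFB2, which encodes a TGF-beta ligand, the region ranked at 25.9 in both parental lists and at 10.7 and 13.4 in SAP30-KO1 cells. ELOVL1, a fatty acid elongase gene beside the end of the cell cycle gene CDC20, had ranks of 41.9 and 35.6 in parental and 34.0 and 13.9 in SAP30-KO1 cells. MAGIX had ranks of 39.4 and 30.7 in parental and 18.4 and 25.7 in SAP30-KO1 cells. SAP30 was in both libraries at PLAC8, TGFB2 and MAGIX, in 1 library at GADD45B and in none at ELOVL1, and in each of the 5 the groups did not overlap because the rule for naming required it.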

How the data were processed

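ChIP-seq peak summits were deposited as lists, 1 per library, with a score that the authors' peak caller gave as −log10 of a p or q value (lowest 1.30). By the submitters' processing notes FastQC 0.11.2, Bowtie2 2.3.3.1, Picard and MACS2 2.1.0 were used with build hg19 (GRCh37). Each library was called by itself. Inputs and H3 samples were not analysed here. Summits on chromosomes 1 to 22 and X were used, genes and start sites came from GENCODE release 44 mapped to GRCh37 (basic transcripts of coding and lncRNA genes), and a midpoint in several genes was assigned to a gene body before a 3′ flank, to a coding before a lncRNA gene, then to the longest. Presence meant a summit of the other list inside the extended region, or an overlap of consensus regions for SAP30, SIN3A, SIN3B and marks. For a single library of these proteins or marks it meant that a summit extended by 500 bp overlapped the extended region. Shares have exact binomial intervals, odds ratios exact conditional intervals or Mantel-Haenszel estimates over 10 rank strata, and lines were compared with exact permutation tests. Nothing in the labels says that the 2 replicates of a group came from separate cultures. The regions, gene lists and comparisons were chosen with earlier results of these data known. Named were the 10 best-ranked regions, the 10 genes with most regions, the 5 best-ranked lost regions, the 5 largest rank changes in each direction, and up to 4 examples of each gene list. Scripts (Python 3.11.15, scipy 1.17.1) were tested on simulated data. The sequence at some of the regions is not reported here.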

Additional observations from a re-analysis of the deposited data

How the results depend on the processing

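The number of regions was 1458, 872 and 164 with extensions of 100, 250 and 1000 bp, 597 with 100 bp for Pol II alone, 203 with a start window of 3000 bp, 61 with the better-ranked 50% of each Pol II list, and 747 to 1026 with 1 parental library left out. The share past the 3′ end or in the last 10% was 22.3%, 29.7% and 53.7% with 100, 250 and 1000 bp, 29.0% with 100 bp for Pol II alone, 48.3% with a start window of 3000 bp, 21.5% without any reach past the end, and 34.2% to 35.9% with 1 library left out. The share in the 3′ end window was 33.5%, 44.6% and 69.5% with 100, 250 and 1000 bp, 45.6% with 100 bp for Pol II alone, 65.5% with ends of every basic transcript and 51.6% to 52.9% with 1 library left out.

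The share with SAP30 was 44.2%, 36.9% and 19.5% with 100, 250 and 1000 bp, 42.5% with 100 bp for Pol II alone, 19.4% with marks of any single library and 15.2% with the better-ranked 50% of each SAP30 list. Its odds ratio against marked regions was 0.443, 0.176 and 0.0446 with 100, 250 and 1000 bp, 0.177 with 100 bp for Pol II alone and 0.0707 to 0.104 with 1 SAP30 library left out, always below 1.

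The ratio of SAP30-KO1 to parental regions per library fell below 1 with lists limited to the shortest (0.944), the better-ranked 50% (0.9005), a common score (0.141) and no removal by marks (0.725), and was 0.903 to 1.24 with 1 library left out. With the replicate block it was 1.06 (exact sign flip, p = 1.0). Same-numbered libraries deviated together weakly (correlation of rank deviations 0.0192 over 11924 regions), so the numbers are not taken as pairs.

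The lost share was 43.96% and 40.2% with 100 and 1000 bp, 47.9% with 100 bp for Pol II alone and 45.9% to 54.4% with 1 SAP30-KO1 library left out. The odds ratio of loss was 1.35 within rank strata, 8.36 with 1000 bp, 1.60 against marked regions and 14.03 against promoters. The odds ratio of loss with against without SAP30 was 1.40 with 1000 bp. The other settings listed kept the direction of each value, and at 100 bp the share past the 3′ end or in the last 10% was below that of marked regions (24.8%). Read depth behind the lists is unknown, and 100 bp for Pol II alone, the 3′ end window, the ends of basic transcripts, the extended match and the extended start test were chosen after seeing the data.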
